A study of Mus musculus with 8 samples.

Results

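R6/2 striatum was compared with WT striatum for 8 orphan G protein-coupled receptor genes: Gpr6, Gpr52, Gpr3, Gpr12, Gpr83, Gpr139, Gpr149 and Gpr155. The members were all non-control probes of the array that carried one of these gene names, which gave 8 probes, 1 per gene, of 55681 probes and 22221 named genes in all. R6/2 mice, a model of Huntington's disease, carry exon 1 of human huntingtin with a long CAG repeat under the human promoter. The groups were male R6/2 mice and male WT control mice, both 4 weeks old, with 4 striatal RNA samples per genotype and 1 single-colour array per sample. The transgene is not limited to 1 cell type, and the striatal RNA was taken from the whole tissue. The labels call the samples replicates without stating that each came from its own animal, so p-values reflect how far these samples vary, some of which may be technical.

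A G protein-coupled receptor is called orphan when no natural ligand is generally accepted for it. Most neurons of the striatum are inhibitory projection neurons of the indirect pathway, which carry the dopamine receptor Drd2 and the adenosine receptor Adora2a, or of the direct pathway, which carry the dopamine receptor Drd1. Both kinds use the cAMP pathway heavily: a receptor coupled to the G protein Gs raises cAMP through adenylyl cyclase, chiefly Adcy5 in this tissue, and phosphodiesterases such as Pde10a break it down. Gpr3, Gpr6 and Gpr12 form a subfamily that raises cAMP without an added ligand, Gpr6 is known for its high level in indirect pathway neurons, and Gpr52 is a Gs-coupled receptor found with Drd2 and known to influence the level of the huntingtin protein.

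Gpr6, Gpr52 and Gpr83 were lower in R6/2 striatum and passed the test over all probes. Gpr139 had a difference of similar size that did not pass, Gpr149 was the member with a positive difference and also did not pass, and Gpr3, Gpr12 and Gpr155 did not pass. All 8 probes were well above background on all 8 arrays. Differences are given as the mean log2 signal of R6/2 minus that of WT, with standard errors (SE) from limma, and p-values adjusted by Benjamini-Hochberg over 35121 tested probes; a probe with an adjusted p under 0.05 is called. Of the 8 members 3 were called, all lower in R6/2, where 1.14% of all tested probes were called lower and 0.367% higher (1.51% in either direction). The R6/2 and WT arrays did not overlap for 4 of the 8 members, where this held for 12.4% of all tested probes. The median difference over the members was -0.48, against 0.0096 over all tested probes.

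On single arrays 61.5% to 67.7% of probes passed the scanner's background test, and 0 spots were saturated. The 8 arrays lay on 1 slide, with the R6/2 arrays in one row and the WT arrays in the other, so slide row and genotype cannot be told apart. All 24 projection neuron genes looked for were above background on all 8 arrays, among them the defining markers Ppp1r1b, Pde10a, Adcy5, Rgs9 and Bcl11b. The array WT 3 stood apart within its genotype, with a mean correlation of 0.984 to the other WT arrays, against 0.987 to 0.989 for those. Member values without it are given beside the results.

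The 60-base probes that measured Gpr6, Gpr52 and Gpr139 are shown. The calls of Gpr6 and Gpr52 and the dim signal of Gpr139 each rest on 1 probe with 1 spot per array. The call of Gpr83 also rests on 1 spot per array, and so do the values of Gpr3 and Gpr155. The sequences are those of the deposited scanner files, 5′ to 3′ and in lower case, and the positions are those of the files, on mouse build mm9. The Gpr6 probe lies at chr10:40790325-40790384, the Gpr52 probe at chr1:162506828-162506887 and the Gpr139 probe at chr7:126288087-126288146, all on the minus strand. None of the 3 holds a stop codon in any of its 3 forward reading frames, while each of the other member probes does.
Gpr6 probe: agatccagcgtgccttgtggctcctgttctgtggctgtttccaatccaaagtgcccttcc
Gpr52 probe: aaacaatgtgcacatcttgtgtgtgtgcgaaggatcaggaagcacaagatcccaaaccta
Gpr139 probe: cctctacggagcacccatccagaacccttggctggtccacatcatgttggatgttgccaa
The other probes lie at chr4:132765611-132765670 (Gpr3, minus strand), chr5:147394520-147394579 (Gpr12, minus), chr9:14673871-14673930 (Gpr83, plus), chr3:62334128-62334187 (Gpr149, minus) and chr2:73191775-73194678 (Gpr155, minus). The Gpr155 probe covers 2904 bases of the genome with 60 bases of sequence, so its parts are not adjacent in the genome. Across the 28 pairs of member probes the longest run of bases shared by a pair was 8. The 8 genes lie on 8 different chromosomes.

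The RefSeq promoter windows (GRCm38.p6, 250 bases before to 50 after a start site) were searched for cAMP response elements (CRE), because Gpr3 and Gpr6 belong to a subfamily that raises cAMP and CREs bind the cAMP-responsive factor CREB. Windows were found for 5 of the 8 genes, with 6 windows in all. Those of Gpr6 and Gpr83, which fell, are shown with that of Gpr3, which was not called. Capitals mark matches, on either strand, to the CRE TGACGTCA, its short form TGACG, the TATA box letters TATAAA, the CCAAT box and the GC box GGGCGG.
Gpr6 promoter (chr10:41072241-41072540, minus strand): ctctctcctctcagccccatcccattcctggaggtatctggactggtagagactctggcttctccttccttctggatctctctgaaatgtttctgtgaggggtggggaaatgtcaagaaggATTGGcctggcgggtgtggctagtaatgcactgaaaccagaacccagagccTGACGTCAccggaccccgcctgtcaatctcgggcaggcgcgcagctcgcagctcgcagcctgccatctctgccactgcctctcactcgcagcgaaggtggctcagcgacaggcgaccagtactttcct
Gpr83 promoter (chr9:14859960-14860259, plus strand): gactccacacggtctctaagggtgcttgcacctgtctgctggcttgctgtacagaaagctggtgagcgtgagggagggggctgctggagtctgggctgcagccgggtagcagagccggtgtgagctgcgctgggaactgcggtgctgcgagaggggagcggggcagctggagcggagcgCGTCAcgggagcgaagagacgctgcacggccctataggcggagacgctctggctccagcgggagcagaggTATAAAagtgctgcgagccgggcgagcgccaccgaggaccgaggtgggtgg
Gpr3 promoter (chr4:133212487-133212786, minus strand): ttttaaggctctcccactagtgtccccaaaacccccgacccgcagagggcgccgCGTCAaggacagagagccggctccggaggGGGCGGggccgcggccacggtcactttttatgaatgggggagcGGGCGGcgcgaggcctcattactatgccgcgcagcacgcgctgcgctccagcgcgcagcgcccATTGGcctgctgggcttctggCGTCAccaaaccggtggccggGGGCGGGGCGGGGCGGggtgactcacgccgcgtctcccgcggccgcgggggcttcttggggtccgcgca
The Gpr6 window holds a whole CRE, which starts 78 bases before the start site; the short form overlaps it on both strands. A whole CRE was found in 1.79% of 32841 promoter windows of the same length, and in 1 of the 6 member windows. The short form was found in 20.8% of all windows and in 4 of the 6 member windows: beside that of Gpr6, it lies 71 bases before the start site in the Gpr83 window, 196 and 40 bases before it in the Gpr3 window and 161 bases before it in the Gpr155 window. GC boxes were found in 35.7% of all windows and in 3 of the 6, with 5 in the Gpr3 window, 7 in that of Gpr155 and 1 in one of the 2 Gpr12 windows. The letters TATAAA were found in 13.6% of all windows and in 1 of the 6, that of Gpr83, where they start 1 base before the annotated start site. The letters CCAAT, present in 37.4% of all windows, were found in 4 of the 6, 129 bases before the Gpr6 start site, 61 before that of Gpr3 and in both Gpr12 windows. The base composition was 58.7% G or C in the Gpr6 window, 67.0% in that of Gpr83 and 72.0% in that of Gpr3, against a median of 52.7%. A match is a run of letters and does not show that a factor binds there.

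Gpr6 fell in R6/2 striatum. Its processed signal was 1248, 990.5, 857 and 942 units on R6/2 arrays 1 to 4, against 1676, 1691, 1273 and 1714 units on WT arrays 1 to 4. All 4 R6/2 arrays lay below all 4 WT arrays, with R6/2 1 the highest of its genotype and WT 3 the lowest of its own. The scaled log2 signal averaged 1.12 ± 0.18 in R6/2 and 1.78 ± 0.16 in WT (SD, n = 4 each), a difference of -0.66 ± 0.12 (SE; limma, adjusted p = 0.0431), or a level 1.58-fold lower. With the replicate number as a block the call was lost (adjusted p = 0.0590), and leaving out 1 array at a time gave differences of -0.75 to -0.61. It was called in 2 of these 8 fits, without R6/2 1 (-0.75, adjusted p = 0.0409) and without WT 3 (-0.74, adjusted p = 0.0364), and without any other array the adjusted p was 0.0981 to 0.116. It was also not called with median scaling (-0.58, adjusted p = 0.0977), with no filter on dim probes (adjusted p = 0.108) or by the methods' t-test, the test that the header of the authors' table names (adjusted p = 0.0740). In the authors' deposited table Gpr6 is 1.57-fold down with an adjusted p of 0.110.

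Gpr52 fell by a similar amount. Its processed signal was 89.3, 82.7, 71.4 and 93.5 units on R6/2 arrays 1 to 4, against 129.7, 137.2, 120.8 and 147.7 units on WT arrays 1 to 4. The groups did not overlap, and the spread within each was small. The scaled log2 signal averaged -2.46 ± 0.13 in R6/2 and -1.78 ± 0.09 in WT (SD, n = 4 each), a difference of -0.68 ± 0.09 (SE; limma, adjusted p = 0.0170). The call held with the replicate block (adjusted p = 0.0482) and was lost without R6/2 2 (adjusted p = 0.0662), R6/2 3 (0.0519), WT 2 (0.0593) or WT 4 (0.0614), and with no filter on dim probes (0.0511). Without WT 3 the difference was -0.70 (adjusted p = 0.0288). With normexp background correction, which adds an offset of 50 to every signal and so draws in the differences of dim probes, the difference was -0.40. In the authors' deposited table Gpr52 is 1.58-fold down with an adjusted p of 0.04999.

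Gpr83, a receptor reported to bind the peptide PEN from the precursor proSAAS and known from regulatory T cells and the brain, fell. Its processed signal was 59.7, 50.6, 51.7 and 46.6 units on R6/2 arrays 1 to 4, against 92.4, 98.0, 84.7 and 117.3 units on WT arrays 1 to 4. The highest R6/2 array lay well below the lowest WT array. The scaled log2 signal averaged -3.15 ± 0.14 in R6/2 and -2.24 ± 0.15 in WT (SD, n = 4 each), a difference of -0.91 ± 0.10 (SE; limma, adjusted p = 0.0105), or a level 1.88-fold lower. Each of the 8 fits without 1 array called it, with differences of -0.96 to -0.85 (-0.95 without WT 3, adjusted p = 0.0244). With the replicate block the call was lost (adjusted p = 0.0590), and with normexp the difference was -0.51. In the authors' deposited table Gpr83 is 1.86-fold down with an adjusted p of 0.0457.

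Gpr139, a receptor known for its level in the habenula and for opposing the mu opioid receptor, was dim and spread widely in WT. Its processed signal was 23.0, 19.3, 12.8 and 16.6 units on R6/2 arrays 1 to 4, against 32.9, 40.7, 17.8 and 44.9 units on WT arrays 1 to 4. The lowest signal of any probe well above background was between 9.73 and 13.1 units on an array, so Gpr139 was measured near the floor. WT 3 lay among the R6/2 arrays, and the other WT arrays lay above all R6/2 arrays. The difference was -0.88 ± 0.27 (SE; limma, adjusted p = 0.160), with a 95% interval of -1.51 to -0.25 before any adjustment. Without WT 3 it was -1.14 and passed (adjusted p = 0.0440), it also passed with array weights (adjusted p = 0.0466), and with normexp it was -0.30. Of 19 alternative fits, only the 2 without WT 3 and with array weights called Gpr139. Its adjusted p was 0.308 with no filter on dim probes and 0.239 by the methods' t-test.

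Gpr149, an orphan receptor known from the mouse oocyte, had the positive difference. Its processed signal was 84.7, 76.9, 80.7 and 76.9 units on R6/2 arrays 1 to 4, against 56.0, 47.0, 48.8 and 73.2 units on WT arrays 1 to 4. All R6/2 arrays lay above all WT arrays, and WT 4 lay close to the R6/2 arrays. The difference was 0.52 ± 0.12 (SE; limma, adjusted p = 0.0732), and without WT 4 it was 0.63 and passed (adjusted p = 0.0490). Of 19 alternative fits only this 1 called Gpr149. Without WT 3 the difference was 0.49 (adjusted p = 0.121), and with the replicate block the adjusted p was 0.0984. In the authors' deposited table Gpr149 is 1.45-fold up with an adjusted p of 0.155. The Gpr149 probe has 10 spots on each array. The standard deviation between spots of an array was 0.09 to 0.17 on the log2 scale, so the standard error from spots alone was at most 0.053. That error leaves out variation between arrays, whose SD was 0.09 in R6/2 and 0.23 in WT.

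**Figure D1:**
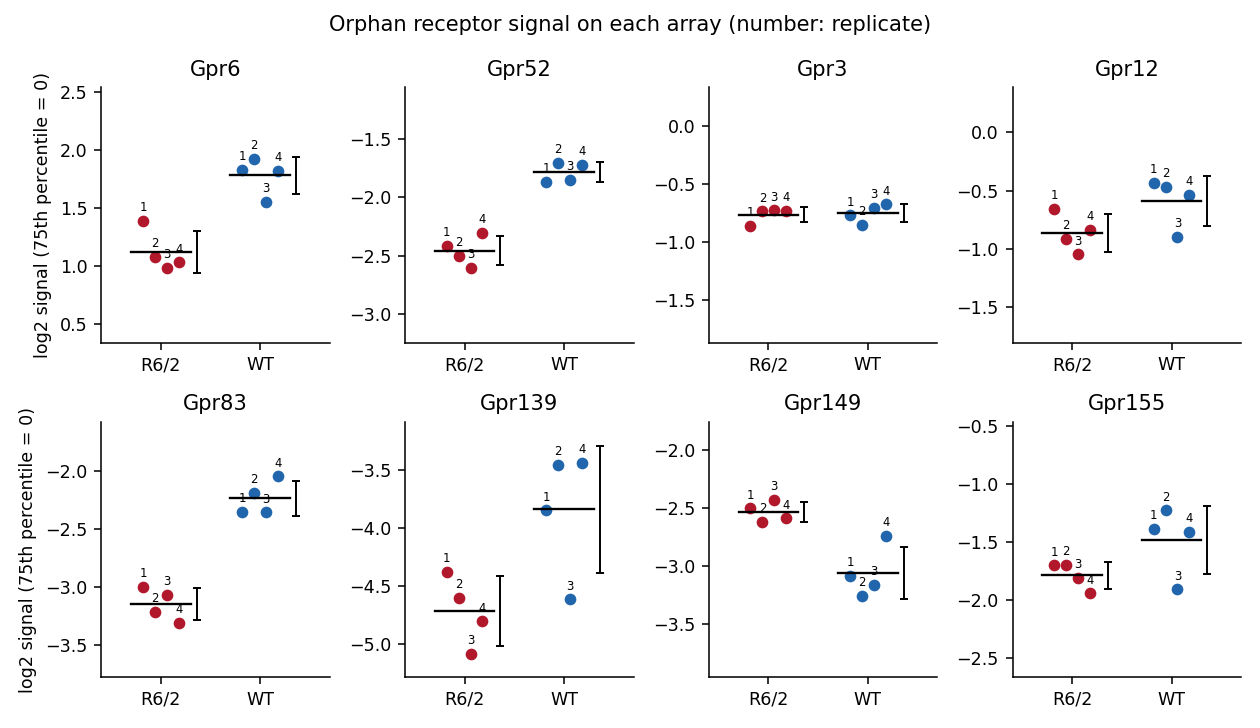
The scaled log2 signal (y axis; the 75th percentile of each array is 0) of each receptor on each array, with R6/2 left and WT right. Points are arrays with their replicate number, lines are means, bars are SD (n = 4), and every panel spans the same log2 range: the genotypes do not overlap for Gpr6, Gpr52, Gpr83 and Gpr149, and WT 3 is the lowest WT array for Gpr6, Gpr12, Gpr83, Gpr139 and Gpr155.

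Gpr3 and Gpr12, the other receptors of the Gpr6 subfamily, were not called. Gpr3 is best known for holding the mouse oocyte in meiotic arrest. Its processed signal was 262.9, 281.7, 262.2 and 277.6 units on R6/2 arrays 1 to 4, against 276.8, 247.0, 266.2 and 304.0 units on WT arrays 1 to 4. The groups overlapped throughout, and the difference was -0.013 ± 0.071 (SE; limma, adjusted p = 0.945; 95% interval -0.18 to 0.15), with its sign turning under quantile normalization and median scaling. Without WT 3 the Gpr3 difference was 0.0024 (adjusted p = 0.990). Gpr12, with 303.5, 249.2, 209.8 and 258.7 units on R6/2 arrays 1 to 4, against 350.9, 322.9, 232.7 and 334.5 units on WT arrays 1 to 4, overlapped between the genotypes. WT 3 was its lowest WT array, and R6/2 1 its highest R6/2 array. Its difference was -0.28 ± 0.13 (SE; limma, adjusted p = 0.321; 95% interval -0.57 to 0.02), and -0.38 without WT 3 (adjusted p = 0.122). The 10 spots of the Gpr12 probe had standard deviations of 0.06 to 0.11 on the log2 scale within an array.

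Gpr155, a membrane protein with a transporter-like and a receptor-like part that is known as a lysosomal cholesterol sensor, was measured at 147.1, 144.7, 123.7 and 120.3 units on R6/2 arrays 1 to 4, against 181.2, 190.8, 115.8 and 182.8 units on WT arrays 1 to 4. WT 3 was the lowest of all 8 arrays before scaling, and the other WT arrays lay above all R6/2 arrays. The difference was -0.30 ± 0.15 (SE; limma, adjusted p = 0.341; 95% interval -0.64 to 0.03), and -0.45 without WT 3 (adjusted p = 0.0687).

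**Figure D2:**
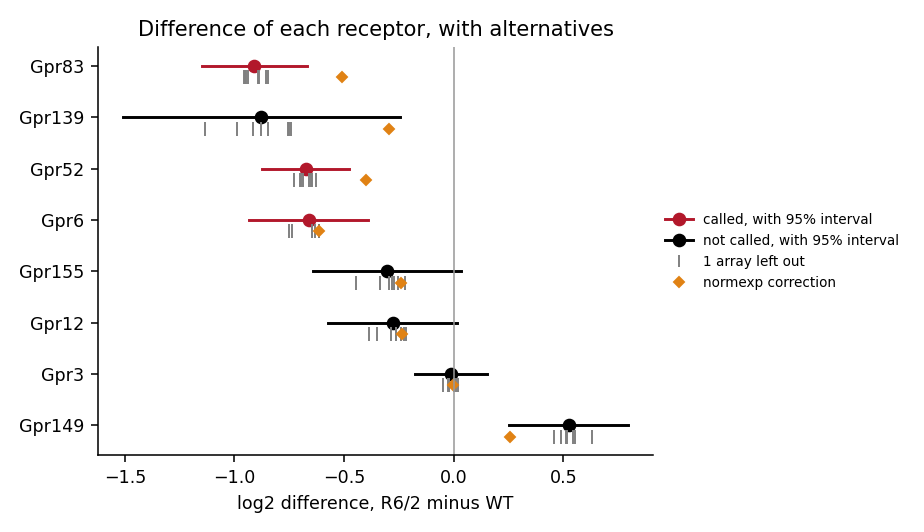
The log2 difference of each receptor, R6/2 minus WT (x axis), with its 95% interval before adjustment. Grey ticks are fits with 1 array left out and diamonds the fit with normexp correction: Gpr83, Gpr52 and Gpr6 are called, and normexp moves the dim probes of Gpr83, Gpr139, Gpr52 and Gpr149 toward 0, to -0.51, -0.30, -0.40 and 0.26.

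The 3 receptors of the Gpr6 subfamily were set against each other within each array, where scaling cancels. Gpr6 minus Gpr3 had a difference, R6/2 minus WT, of -0.65 ± 0.16 on the log2 scale (SE, n = 4 each), and Gpr6 minus Gpr12 of -0.38 ± 0.06, with no overlap between the genotypes in either. Both gave p = 0.0286 in a two-sided exact permutation test, the smallest that 70 splits of 8 arrays can give, and an adjusted p of 0.0524 over the 11 comparisons of this kind, so neither passed. Gpr12 minus Gpr3 was -0.27 ± 0.17 with overlapping groups (exact permutation p = 0.200, adjusted p = 0.229). Within pairs of same-numbered arrays, a comparison added after the data were seen, all 3 values were negative in 4 of 4 pairs: -0.96 to -0.35 for Gpr6 minus Gpr3, -0.49 to -0.22 for Gpr6 minus Gpr12 and -0.56 to -0.13 for Gpr12 minus Gpr3. Each gave p = 0.125 in a two-sided exact sign-flip test, the smallest that 4 pairs can give, so no paired comparison could pass. A within-array value sets the difference of one receptor against that of another and does not say which of them changed.

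**Figure D3:**
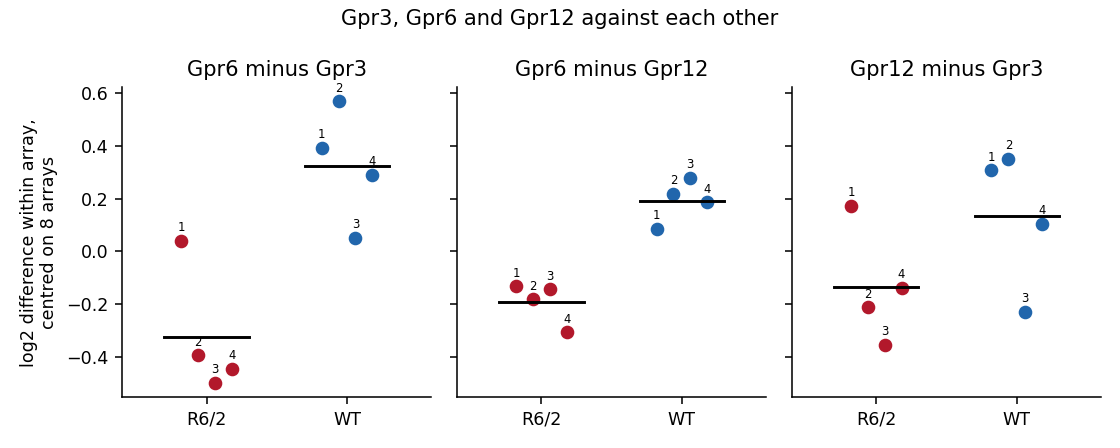
The log2 difference between a pair of receptors on the same array (y axis, centred on the mean of the 8 arrays), with R6/2 left and WT right. Points are arrays with their replicate number and lines are means: the genotypes do not overlap for Gpr6 minus Gpr3 and Gpr6 minus Gpr12, and they overlap for Gpr12 minus Gpr3.

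Part of the projection neuron genes fell in R6/2 too. Of 24 such genes 12 fell and 0 rose, all 24 had a negative difference, and their median was -0.49, where 1.46% of 16565 named genes were called lower, 0.465% higher (1.93% in either direction), and the median was 0.022. Among them were the sodium channel subunit Scn4b (-1.23, adjusted p = 0.0137), the phosphodiesterase Pde10a (-0.99, adjusted p = 0.0246), the cAMP-regulated phosphoprotein Arpp21 (-0.90, adjusted p = 0.0104) and the potassium channel partner Kcnip2 (-0.61, adjusted p = 0.0127). Arpp21 had 3 tested probes, of which 1 was called, with differences of -0.90 to -0.29. The list's summed signal, in units of the array's 75th percentile, was 857 to 1088 on R6/2 arrays, against 1431 to 1641 on WT arrays, with WT 3 the lowest WT array here too. The count of 12 was 4 with the replicate block, 4 by the methods' t-test, 3 with no filter on dim probes, 2 with median scaling and up to 15 with normexp or a trended prior. With 1 array left out it was 2 to 9: 2 without R6/2 2 or WT 4, 3 without R6/2 3, WT 1 or WT 2, 5 without R6/2 1, 6 without R6/2 4 and 9 without WT 3. Like the others, this list was chosen with earlier results of these data known, so its counts are no independent test. In whole-tissue RNA, fewer cells of a type and less RNA per cell cannot be told apart.

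Each receptor was set against the mean of this list on the same array, which had a difference of -0.53 ± 0.10 (SE). Gpr6 minus the list's mean on the same array was -0.13 ± 0.08 and Gpr52 minus the list's mean -0.15 ± 0.13, both with overlapping genotypes (exact permutation p = 0.200 and 0.229), and the second turned to 0.11 with normexp. Gpr83 minus the list was -0.38 ± 0.08 with no overlap (exact permutation p = 0.0286, adjusted p = 0.0524), and 0.0034 with normexp. The values of Gpr3 (0.51), Gpr155 (0.22) and Gpr149 (1.05) minus the list did not overlap either and had the same exact permutation p and adjusted p. Gpr12 minus the list was 0.25 (exact permutation p = 0.143) and Gpr139 minus the list -0.35 (exact permutation p = 0.229), or 0.22 with normexp. None of the 11 comparisons passed after adjustment, and with 4 arrays per genotype the smallest p each can give is 0.0286. Within pairs of same-numbered arrays Gpr6 minus the list was negative in 4 of 4 pairs (-0.23 to -0.048), and so were Gpr83 (-0.52 to -0.26) and Gpr139 (-0.62 to -0.11) minus the list. Gpr12 minus the list was positive in 4 of 4 pairs (0.16 to 0.44), as were Gpr3, Gpr149 and Gpr155 minus the list. Gpr52 minus the list was negative in 3 of 4 pairs (-0.39 to 0.16; exact sign-flip p = 0.250), and the other 7 each gave the smallest exact sign-flip p that 4 pairs allow, 0.125.

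Of 8 indirect pathway markers 3 fell and 0 rose, with a median of -0.84: the opioid precursor Penk (-1.11, adjusted p = 0.0102), the enzyme gene Upb1 (-0.95, adjusted p = 0.0419) and Adora2a (-1.15, adjusted p = 0.0499). Against the mean of these 8 markers, a comparison added after the data were seen, Gpr6 stood at -0.011 (exact permutation p = 0.943) and Gpr52 at -0.025 (exact permutation p = 0.857), each with an adjusted p of 0.943 over the 8 receptors. Gpr3 (0.64), Gpr12 (0.37), Gpr149 (1.17) and Gpr155 (0.35) each had an exact permutation p of 0.0286 and an adjusted p of 0.0571. Gpr83 stood at -0.26 (exact permutation p = 0.0571, adjusted p = 0.0914) and Gpr139 at -0.23 (exact permutation p = 0.229, adjusted p = 0.305). The differences of the 8 markers themselves ranged from -1.15 to 0.08, with 7 negative and 1 positive. This list's summed signal was 108 to 150 on R6/2 arrays, against 228 to 276 on WT arrays. Of 9 direct pathway markers 2 fell and 0 rose, the muscarinic receptor Chrm4 (-0.59, adjusted p = 0.0294) and the opioid precursor Pdyn (-0.63, adjusted p = 0.0371), with a list median of -0.13. Of these 9 markers 5 had a negative and 4 a positive difference. The highest was 0.46 (adjusted p = 0.0555), with no overlap between the genotypes. Of the 2 tested probes of Pdyn 1 was called, and the other had a difference of -0.51. With the replicate block, and also by the methods' t-test, with median scaling and with no filter on dim probes, 1 indirect and 0 direct pathway markers were called. With 1 array left out the indirect count was 2 without R6/2 1 or WT 3 and 1 without any other, and the direct count was 2 without WT 3, 1 without R6/2 1 and 0 without any other. The counts called lower were 5 and 3 with normexp, array weights, a trended prior or a filter on all 8 arrays. In each of these settings 1 direct pathway marker was called higher.

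Of 31 genes of Gs and cAMP signalling, each by its brightest probe, 4 fell and 0 rose, with a median of -0.12. These were Pde10a, the adenylyl cyclases Adcy5 (-0.89, adjusted p = 0.0262) and Adcy9 (-0.42, adjusted p = 0.0315) and the phosphodiesterase Pde1b (-0.69, adjusted p = 0.0288). Another listed gene, counted as not called, had 1 of its 2 probes called lower (-0.56). The list shares 5 genes with the projection neuron list. Of the called genes, Pde10a, Adcy5 and Pde1b are counted in both lists and Adcy9 in this list alone. The count of 4 was 1 with the replicate block or by the methods' t-test, 0 with median scaling and 0 with no filter on dim probes. With 1 array left out it was 0 without R6/2 2, R6/2 3, WT 1, WT 2 or WT 4, 2 without R6/2 1 or R6/2 4 and 5 without WT 3. Of 7 receptor kinases and arrestins, each by its brightest probe, 0 were called by limma and 0 by the methods' t-test. An unadjusted p under 0.05 was found for 0 of them. Grk5 had -0.21 (adjusted p = 0.530) and Grk6 -0.09 (adjusted p = 0.537), and the 2 probes of Grk6 differed in sign (-0.09 and 0.12).

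Of 51 other orphan receptors 40 passed the filter on dim probes. Among those 2 fell and 0 rose, with a median of 0.03: Gpr26 (-0.66, adjusted p = 0.0104) and Gpr153 (-0.85, adjusted p = 0.0383). The call of Gpr153 was lost with the replicate block (adjusted p = 0.0591) and without WT 3 (adjusted p = 0.0504). The count of 2 was 2 without R6/2 1 and 1 without any other array, and 1 with median scaling, with no filter on dim probes or by the methods' t-test. It was 3 with normexp, array weights or a trended prior. By the methods' t-test, and also with a trended prior, 1 was called higher. Another 1 of the 51 was not matched to a probe and is not analysed here.

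**Figure D4:**
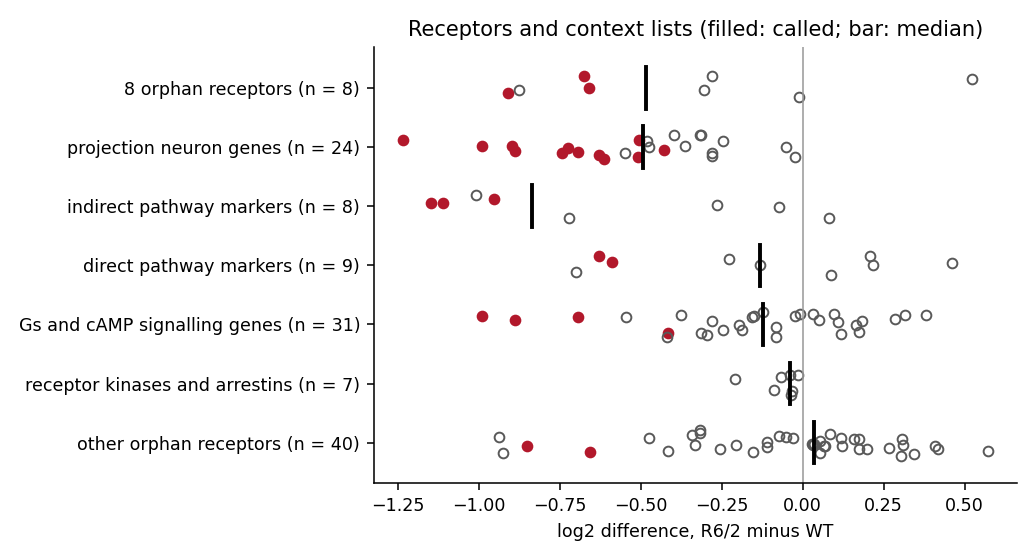
The log2 difference, R6/2 minus WT (x axis), of the 8 receptors and of the genes of 6 context lists. Each point is a gene, filled where called and spread vertically within its row for display, and bars are medians: -0.48 for the 8 receptors, -0.49 for projection neuron genes, -0.84 for indirect pathway markers and 0.03 for other orphan receptors.

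The genes reported as ligands or partners of the members were not called. Of 7 listed, 2 are not analysed here. The 5 tested were counted by their brightest probe. Of these, 0 were called by limma, 0 by the methods' t-test and 0 had an unadjusted p under 0.05. Rabgap1l is among them, and its other probes are given below. Pcsk1n, which encodes the proSAAS precursor of the PEN peptide, had a difference of 0.14 ± 0.12 (SE; adjusted p = 0.586), and Oprm1, the mu opioid receptor, of -0.25 ± 0.11 (SE; adjusted p = 0.325). The 3 tested probes of Oprm1, of which 0 were called, ranged from -0.25 to 0.13. Rab39b, through which Gpr52 is reported to act on huntingtin, had 0.10 ± 0.12 (SE; adjusted p = 0.722), with a sign that turned without WT 3. The mouse gene Htt had 0.01 ± 0.07 (SE; adjusted p = 0.961), and its sign turned with normexp and array weights.

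Gpr52 lies inside the gene Rabgap1l, on the same strand, in the RefSeq annotation (GRCm38.p6). Rabgap1l had 3 tested probes, of which 0 were called by limma, with differences of -0.14 ± 0.16 (adjusted p = 0.696), -0.44 ± 0.09 (adjusted p = 0.0637) and -0.09 ± 0.11 (adjusted p = 0.718). The first lies about 96 kb upstream of the Gpr52 probe and the others 319 and 357 kb downstream on that strand, by the positions of the files. All 3 were smaller in size than the Gpr52 difference of -0.68; the difference between them and Gpr52 was not tested.

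Within 100 kb of a member probe, 17 named genes with 25 tested probes were found, near 5 of the 8 receptors. None of the 25 probes was called by limma or by the methods' t-test, 6 had an unadjusted p under 0.05 (17.0% of all tested probes did), and differences ranged from -0.57 to 0.36. Near Gpr83 were Izumo1r, Gm16379, Ankrd49 and Mre11a, with differences of 0.33, 0.07, 0.13 and -0.17. Near Gpr3 were Map3k6, Cd164l2, Wdtc1, Wasf2, Sytl1 and Tmem222, near Gpr149 Dhx36 and Arhgef26, near Gpr155 Wipf1, Cir1, Sp9 and Scrn3, and near Gpr52 Rabgap1l. Gpr6, Gpr12 and Gpr139 had no tested neighbour in this window.

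Markers of other cells showed 1 call. Of 6 interneuron markers Th, which encodes tyrosine hydroxylase, fell (-0.64, adjusted p = 0.0259, and 0.0668 with the replicate block). All 6 had a negative difference, 5 had an unadjusted p under 0.05, and with a trended prior 2 were called lower. The list's median was -0.52, and its summed signal was 36.9 to 39.9 on R6/2 arrays, against 47.5 to 61.7 on WT arrays. With 1 array left out 1 interneuron marker was called without WT 3 and 0 without any other array, and 0 were called with median scaling or with no filter on dim probes. Of 10 pan-neuronal genes 0 were called by limma and 0 by the methods' t-test, while 2 had an unadjusted p under 0.05, Snap25 (-0.31, adjusted p = 0.0682) and Syt1 (-0.35, adjusted p = 0.0902). With normexp or a trended prior 2 pan-neuronal genes were called lower, and with array weights 1. Over 9 lists of cortical, septal and hypothalamic, thalamic and habenular, astrocyte, oligodendrocyte, precursor, microglia, endothelium and choroid plexus markers, 31 genes were tested, 0 were called by limma or by the methods' t-test, and 3 had an unadjusted p under 0.05. Of these 31 genes 25 had a negative difference, with a median of -0.096, where 45.5% of all named genes had one; their part in the receptors' values was not tested. The 2 genes of smallest p in a list had differences of -0.10 and -0.09 for astrocytes (Gja1, Aldh1l1), 0.087 and -0.033 for oligodendrocyte precursors (Pdgfra, Cspg4) and -0.086 and -0.051 for microglia (Tmem119, Csf1r). They were -0.41 and -0.092 for endothelium (Cldn5, Flt1), -0.25 and -0.17 for choroid plexus (Ttr, Folr1), 0.28 and -0.29 for septum and hypothalamus (Trpc4, Lhx8) and -0.63 and -0.54 for cortex (Slc17a7, Tbr1). The oligodendrocyte gene Mobp had -0.45. The signs of Csf1r, Cspg4, Ttr and Folr1 turned under another scaling or with an array left out. Beside the value of Gpr139 stand the 3 thalamus and habenula markers, Slc17a6 (-1.35, adjusted p = 0.252), Tac2 (-0.83, adjusted p = 0.251) and Tcf7l2 (-0.78, adjusted p = 0.413), whose summed signal was 0.773 to 1.62 on R6/2 arrays, against 1.39 to 3.29 on WT arrays. Their part in the Gpr139 value was not tested.

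For the 3 called receptors, the named genes most alike across arrays were found after each genotype's mean was subtracted, by Pearson correlation over 8 arrays among 15300 genes. This is a description of arrays that share a slide, and the highest of so many correlations over 8 arrays is high in any case. For Gpr6 they were Plcl2 (0.981), Efcab10 (0.973), Kctd20 (0.970), Tle4 (0.969) and Ifrd1 (0.968). For Gpr52 they were Fam13b (0.984), Fhl2 (0.980), Ocrl (0.970), Kcna3 (0.969) and Arhgap10 (0.967). For Gpr83 they were Catsperd (0.978), Cox8a (0.968), Oprd1 (0.963), Ncmap (0.949) and Eml6 (0.942). Of these 15 genes the delta opioid receptor Oprd1 was called (-0.64, adjusted p = 0.0302).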

How the data were processed

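Striatal RNA of 4 R6/2 and 4 WT samples was read on 1 single-colour array each. Per the file headers, the scanner files come from Agilent Feature Extraction 10.7.3.1, and the intensity values that the authors deposited are a processed signal, the mean spot signal and the median local background, not scaled between arrays. The authors also deposited a table of log2 values for the whole series, which are processed signals with a constant per array subtracted, as found from the values. The authors' p-values there come from an unpaired t-test (the methods' t-test) with Benjamini-Hochberg correction, per the file headers, and the authors' fold values are ratios with the direction in a separate column.

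Here the log2 of the processed signal minus that of each array's 75th percentile was used. Outlier spots were left out, and spots of a probe averaged. Probes above background on at least 4 of 8 arrays were tested with limma 3.58.1 in R 4.3.3, adjusted over 35121 probes. Comparisons of 2 receptors, or of a receptor with a list, used exact permutation tests, and exact sign-flip tests within replicate numbers. The number of arrays limits the precision. Genes were named through the RefSeq GRCm38.p6 table (26762 probes by accession, 3819 by symbol, 639 by synonym), and the brightest tested probe on average stood for a gene.

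Same-numbered arrays of the genotypes deviated together (correlations of 0.222, 0.183, 0.356 and 0.133 for numbers 1 to 4), so the number was also fitted as a block; it equals the slide column, and the labels state no pairing. The members and gene lists were chosen with earlier results of these data known. The text names all members, every reported partner and neighbour within 100 kb, the 5 most alike genes of each called member, and of the lists up to 4 called genes, or the 2 of smallest p. Some genes that this rule names are not reported here, and they remain in the counts.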

Additional observations from a re-analysis of the deposited data

Results flagged for a closer look

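In 16 groups of 4 arrays (8 receptors, 2 genotypes), 1 array stood apart from its group by Dixon's test at the 95% level. This was R6/2 1 for Gpr3, whose scaled log2 signal was -0.86, against -0.74 to -0.73 on the other R6/2 arrays, so that its gap took up 0.935 of the group's range. Chance flags about 1 in 20 groups. Without this array the Gpr3 difference was 0.020.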

How the results depend on the processing

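The 19 alternatives kept the direction of every receptor but Gpr3, whose difference was 0.017 with quantile normalization, 0.067 with median scaling and -0.047 to 0.020 with 1 array left out. The 3 calls became 1 with no filter on dim probes, 1 with the replicate block and 1 to 4 with 1 array left out; the other settings gave 2 to 4. Gpr83 stayed called in 18 of 19 alternatives, Gpr52 in 14 and Gpr6 in 9. Of the members not called in the main fit, Gpr139 was called in 2 alternatives, Gpr149 in 1, and Gpr3, Gpr12 and Gpr155 in 0. Over all probes the 529 calls became 981 with normexp, 228 with median scaling, 110 without the filter, 283 with the replicate block, 1114 with array weights, 1024 with a trended prior, 264 with the methods' t-test and 100 to 505 with 1 array left out. With normexp, Gpr52, Gpr83 and Gpr139 minus the projection neuron list became 0.11, 0.0034 and 0.22. Chosen after seeing the data, the indirect pathway markers in place of that list reversed none of the 8 receptors. Among genes with differences near 0, Htt turned with normexp (-0.0029), array weights (-0.0083) and arrays left out (-0.032 to 0.036), Csf1r (0.028) and Cspg4 (0.046) with median scaling, and with arrays left out Cspg4 (-0.13 to 0.029), Ttr (-0.65 to 0.16), Folr1 (-0.65 to 0.26) and Rab39b (-0.0044 to 0.17). The causes were not tested. The slide as a block was not run, since all arrays share 1 slide. The dim probes, Gpr139 above all, are limited by signal over background.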
